A study of Mus musculus with 8 samples.

Results

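Insulin acts on a cell through a short relay of proteins, and the 10 genes described here encode its main parts: the insulin receptor (Insr), its docking proteins (Irs1 and Irs2), adaptors that restrain the receptor (Grb10 and Grb14), regulatory subunits of PI3-kinase (Pik3r1 and Pik3r3), the kinase Akt1, and transcription factors that Akt controls (Foxo1 and Foxo3). They were chosen by gene symbol among the 47706 genes of the count table, where each symbol matched 1 entry. RNA was sequenced from primary calvarial osteoblasts of mice, bone-forming cells of the skullcap, in 4 samples given PTH (parathyroid hormone) and 4 given vehicle for 24 hours. All 8 sample names begin with Con, which the labels do not spell out, and no further genotype is given. For both groups the labels name 7 days of adipogenic differentiation, whereas the methods describe cells isolated from newborn mice and grown in osteogenic medium, with serum lowered before treatment. The labels do not say whether the samples came from separate cultures or animals, so p-values measure only the spread between these samples, which may be technical.

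In the textbook account, insulin or IGF1 binds its receptor, the receptor phosphorylates the insulin receptor substrates IRS1 and IRS2 on tyrosines, and PI3-kinase docks there through its regulatory subunits. The lipid that PI3-kinase makes brings Akt to the membrane, and active Akt phosphorylates FoxO proteins and keeps them out of the nucleus. Osteoblasts carry both receptors, and IRS1 and IRS2 are each known to be needed for normal bone mass in mice.

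Total counts lay between 33605610 and 56090654 per sample, and levels are given as CPM, counts scaled to the TMM-normalized library, with the mean ± SD of 4 samples. Tnfsf11, the RANKL gene that PTH is known to induce, rose from 1.42 ± 0.365 to 128 ± 20.0 CPM, which served to check how the samples were labelled. Summed osteoblast markers lay between 76500 and 87300 CPM with vehicle and between 73100 and 106000 CPM with PTH. Most of this sum came from Col1a1 and Col1a2 (44400 ± 2310 and 35100 ± 1790 CPM with vehicle), so it says little about the other markers. Of the 8 markers the transcription factor genes Runx2 and Sp7 fell. Summed adipocyte markers lay between 105 and 127 CPM with vehicle and between 103 and 117 CPM with PTH. The defining fat cell gene Adipoq stood at 3.48 ± 0.775 CPM with vehicle. Of these markers Pparg fell. Summed chondrocyte markers lay between 409 and 463 CPM with vehicle and between 479 and 606 CPM with PTH, where Acan and Col2a1 rose, and endothelial and muscle markers each summed to at most 8.36 CPM in any sample. The part of these shifts in the results on the 10 genes was not tested. PTH replicate 2 was the shallowest library and had the lowest PTH value for 7 of the 10 genes.

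With PTH the genes for the IRS docking proteins moved in opposite directions. Irs1 fell 3.06-fold and Irs2 rose 5.99-fold, and Irs2 went from the lowest of the 10 genes per length of transcript to the highest but for Grb10 and Akt1. Pik3r1, Pik3r3 and Grb14 fell by between 1.34-fold and 2.07-fold, Foxo1 rose 1.97-fold and Foxo3 fell by 0.22 on the log2 scale. Insr, Akt1 and Grb10 did not pass the test. In all, 2 of the 10 genes were higher and 5 were lower at an adjusted p under 0.05 (edgeR quasi-likelihood test, Benjamini-Hochberg over all 16736 genes tested). Among all tested genes 23.3% were called higher and 22.5% lower, 45.8% in either direction, so that 7 called genes of 10 stood against a background of many calls. The median log2 fold change was -0.16 over the 10 genes and -0.001 over all tested genes. In bulk RNA, fewer cells of a type and less RNA per cell cannot be told apart.

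**Figure D1:**
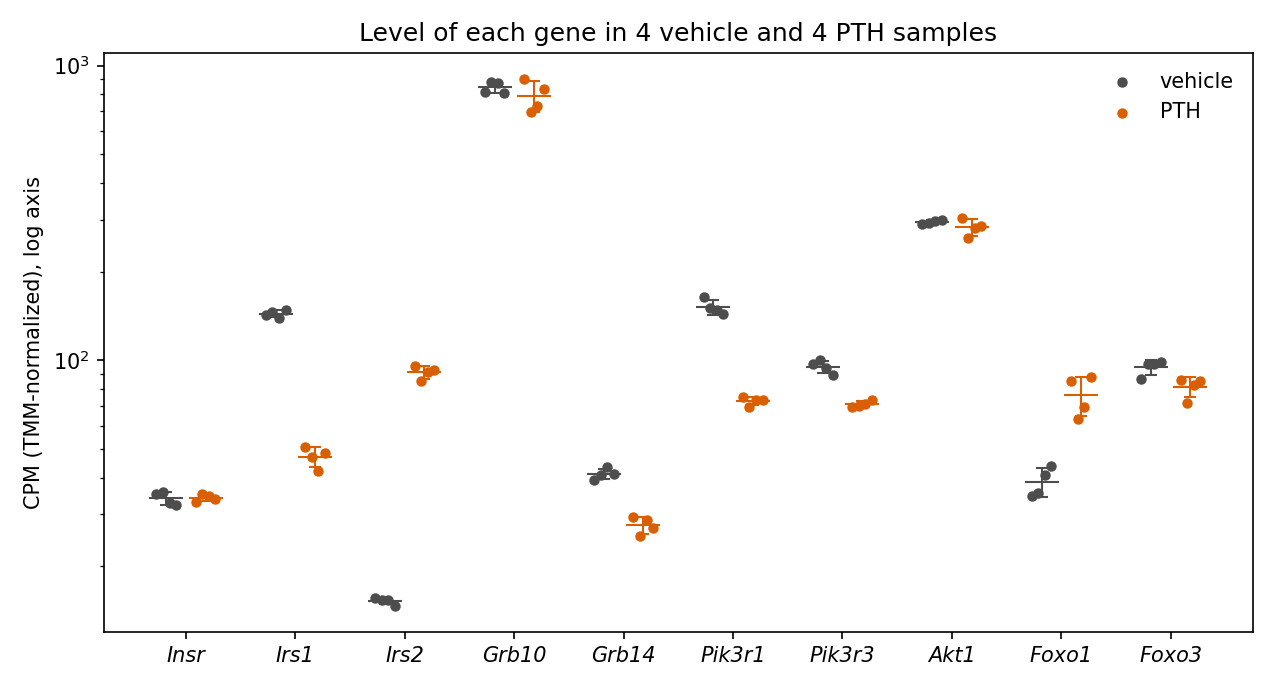
Level of each of the 10 genes in CPM on a log axis, with 1 point per sample, vehicle in grey and PTH in orange, and bars for the mean ± SD of 4 samples. Irs1 and Irs2 move in opposite directions with no overlap between treatments, from 144 to 47.0 CPM and from 15.2 to 91.3 CPM, while the means of Insr are 34.0 and 34.1 CPM.

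Irs1 and Irs2 are built alike: each gene has 2 annotated exons, and each encodes a large scaffold with no enzyme activity of its own. Irs1 lies on the minus strand of chr1:82233101-82291416 and Irs2 on the minus strand of chr8:10984681-11008458 (GENCODE M21, GRCm38). Because the results turn on this pair, the 250 bases upstream of each RefSeq start site (GRCm38.p6) are shown 5′ to 3′ on the gene's strand, chr1:82291440-82291689 for Irs1 and chr8:11008930-11009179 for Irs2. Capitals mark the E-box CACGTG, the insulin response sequence CAAAACA or its reverse complement TGTTTTG, and the core of the cAMP response element, TGACG or its reverse complement CGTCA.
Irs1: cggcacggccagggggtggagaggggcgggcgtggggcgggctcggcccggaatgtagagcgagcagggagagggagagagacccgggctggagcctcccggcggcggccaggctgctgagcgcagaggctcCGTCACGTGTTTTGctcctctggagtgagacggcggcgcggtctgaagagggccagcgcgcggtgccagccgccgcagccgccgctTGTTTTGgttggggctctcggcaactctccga
Irs2: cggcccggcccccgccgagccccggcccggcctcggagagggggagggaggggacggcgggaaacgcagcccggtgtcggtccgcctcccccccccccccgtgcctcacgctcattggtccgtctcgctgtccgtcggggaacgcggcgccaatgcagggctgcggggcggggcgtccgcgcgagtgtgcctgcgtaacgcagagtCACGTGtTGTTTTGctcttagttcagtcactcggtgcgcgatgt
In Irs1 the cAMP response core overlaps the E-box, and the E-box overlaps the insulin response sequence. The RefSeq start of Irs2 lies 471 bases upstream of the start of the GENCODE gene, and that of Irs1 lies 23 bases upstream.

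In both windows the E-box begins within 10 bases of an insulin response sequence, overlapping it in Irs1 and lying 1 base from it in Irs2. Irs4, a relative that had 0 counts in every sample, holds the arrangement seen in Irs2. The stretches are chr1:82291540-82291556 for Irs1, chr8:11008956-11008975 for Irs2 and chrX:141725354-141725373 for Irs4, all on the minus strand, with both motifs in capitals.
Irs1: gtCACGTGTTTTGctcc
Irs2: gtCACGTGtTGTTTTGctct
Irs4: gtCACGTGtTGTTTTGccca
The Irs2 and Irs4 windows share a run of 17 bases through this site, and those of Irs1 and Irs2 share 10 bases. The window of Irs3, the remaining member of the family, had neither motif. It still shared a run of 10 bases with Irs1 and of 9 bases with Irs2, so a run of 10 bases does not need this site. Motifs were searched on both strands in windows from 250 bases before to 50 bases after the start. Of 32851 windows of 27025 mouse genes, 7.15% held the E-box, 6.28% the insulin response sequence and 20.8% the TGACG core. Both of the first motifs occurred in 134 windows (0.408%), and in 9 windows (0.0274%) of 8 genes they began within 10 bases of each other. This distance was chosen after the sequences had been seen. The 8 genes include Irs1, Irs2, Irs4 and Klf11, a transcriptional repressor that fell by 1.87 on the log2 scale (edgeR quasi-likelihood test, adjusted p = 1.5e-07). Of the 5 genes tested, Irs1, Klf11 and Pyroxd1 were lower, Irs2 was higher and Pcbp1 was not called. Among all tested genes 45.8% were called in either direction. Irs1 and Irs2 were among the sequences seen when the distance was chosen. A link between these motifs and the response to PTH was not tested. A letter match describes the sequence and does not show that a factor binds there.

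Among the other members with a RefSeq window, the TGACG core occurred in windows of Pik3r1, Pik3r3, Foxo3 and Grb10. The FoxO element GTAAACA or its reverse complement TGTTTAC, found in 3.65% of all windows, occurred in 1 window of Akt1, 161 bases before the start. Only these letters were counted under that name, so other sequences that FoxO factors may bind were not covered by it. The insulin response sequence of Irs1 and Irs2 was counted separately. The full cAMP response element TGACGTCA (1.79% of windows) and the AP-1 site TGANTCA (7.81%) occurred in no window of the 9 genes. Insr has no entry in the table of windows.

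Irs1 had 143, 146, 139 and 148 CPM in vehicle replicates 1 to 4 and 50.7, 46.8, 42.1 and 48.5 CPM in PTH replicates 1 to 4. The highest PTH sample was thus far below the lowest vehicle sample. The log2 fold change was -1.61 (95% interval -1.76 to -1.47, edgeR quasi-likelihood test with Benjamini-Hochberg adjustment, adjusted p = 2.63e-09), the 199th lowest of 16736 tested genes.

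Irs2 had 15.6, 15.3, 15.4 and 14.7 CPM with vehicle and 96.0, 85.2, 91.0 and 92.9 CPM with PTH. The groups were again separate, and the vehicle samples differed among themselves by less than 1 CPM. The log2 fold change was 2.58 (95% interval 2.44 to 2.73, edgeR adjusted p = 2.83e-11), the 330th highest. Between 666 and 736 counts per vehicle sample and between 2833 and 4921 counts per PTH sample stood behind these levels.

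The exchange was measured within each sample, where library size cancels. The log2 ratio of Irs2 to Irs1 counts was -3.24 ± 0.0679 with vehicle and 0.96 ± 0.106 with PTH, an 18.4-fold change of the ratio (exact two-sided permutation test, p = 0.0286, n = 4 per group, the smallest p that 70 assignments allow). This was 1 of 4 such ratios, each between genes of related function, and the adjusted p over the 4 was also 0.0286. Since Irs1 and Irs2 each separated the groups, in opposite directions, their ratio had to separate them too. Its p-value thus adds no evidence to that of the single genes. Per kilobase of the longest annotated transcript, Irs2 made up 13.3 ± 0.537% of the pair with vehicle (12.6% to 13.8%) and 73.8 ± 1.40% with PTH (72.5% to 75.8%). The sum of the pair moved far less, from 18.2 ± 0.377 to 19.6 ± 0.961 CPM per kb. Vehicle sums ended at 18.5 and PTH sums began at 18.6 CPM per kb, so the sums barely separated, and they depend on the transcript lengths used. In CPM without division by length the sum was lower with PTH, as mean Irs1 went from 144 to 47.0 and mean Irs2 from 15.2 to 91.3 CPM. The direction of the small change in the sum thus rests on the lengths. The makeup of the pair thus changed more than its sum.

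**Figure D2:**
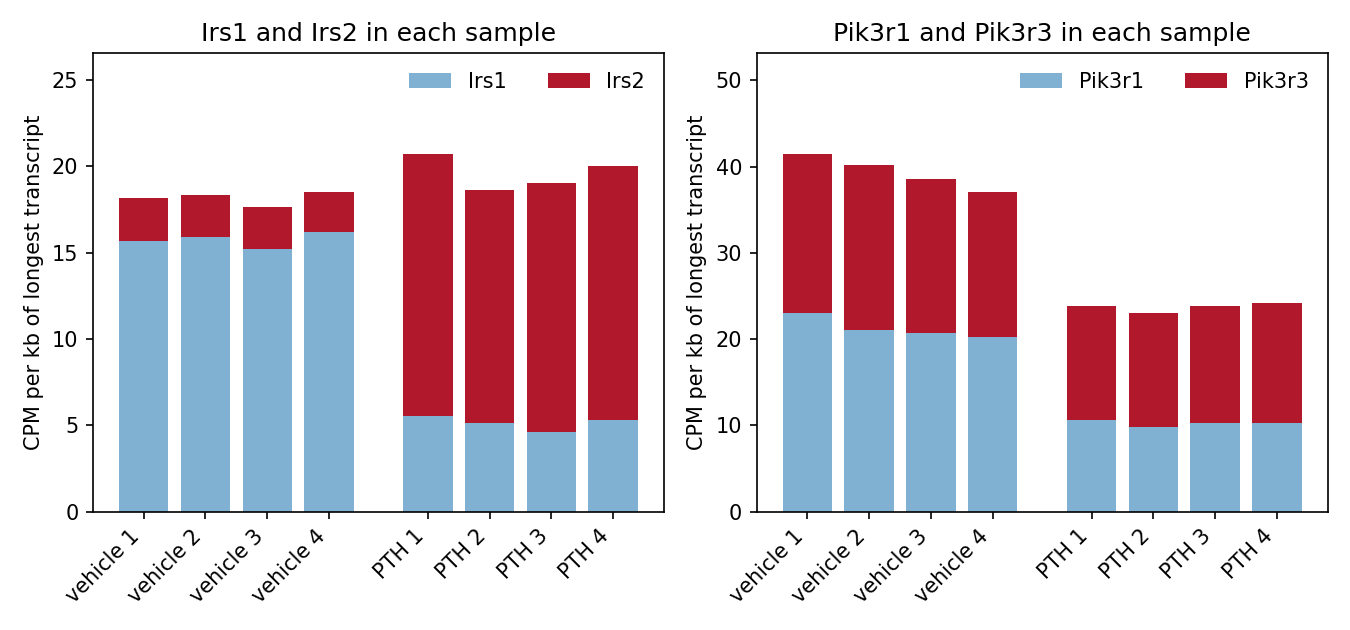
Stacked bars for each of the 8 samples, in CPM per kb of the longest annotated transcript, with Irs1 and Irs2 in the left panel and Pik3r1 and Pik3r3 in the right panel. The height of the Irs bars lies between 17.6 and 20.7 in all samples while Irs2 takes over most of the bar with PTH, whereas the Pik3r bars shrink from a mean of 39.4 to 23.7.

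The other IRS genes stood far below this pair. Irs3 fell from 1.21 ± 0.320 to 0.596 ± 0.102 CPM with PTH (log2 fold change -1.02, edgeR adjusted p = 0.0193), with between 44 and 72 counts per vehicle sample and between 23 and 25 per PTH sample. Without vehicle replicate 2 this call was lost (edgeR adjusted p = 0.0741). Irs4 had no count. By Pearson correlation of log2 CPM over the 8 samples, given as a description, Prr5, Nfil3 and Phlda1 were most like Irs2 (r = 0.99997, 0.99975 and 0.99958). The genes most like Irs1 were Acot11, Lrrc42 and Snx33 (0.99946, 0.99775 and 0.99732). All 8 points share the treatment split, and 364 of 14057 genes compared had r above 0.99 with Irs2, against 106 with Irs1.

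The receptor gene itself was not called. Insr (minus strand of chr8:3122061-3279617) had 35.3, 35.6, 32.9 and 32.3 CPM with vehicle and 33.1, 35.1, 34.5 and 33.9 CPM with PTH. The groups overlapped entirely, and the log2 fold change of 0.00 had a 95% interval of -0.14 to 0.15 (edgeR adjusted p = 0.959). Igf1r, the IGF1 receptor that uses the same substrates, rose from 60.0 ± 3.44 to 82.9 ± 7.73 CPM in the PTH samples (by 0.47 on the log2 scale, edgeR adjusted p = 0.000395). Insrr, a related receptor that does not bind insulin, reached at most 10 counts in any sample and was not tested.

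Grb10 and Grb14 bind the activated insulin receptor and inhibit its kinase. Grb10, an imprinted gene on the minus strand of chr11:11930508-12038683, was the most abundant of the 10 genes, with 817, 877, 876 and 808 CPM with vehicle and 899, 698, 728 and 836 CPM with PTH. The PTH samples spanned the whole vehicle range, and the log2 fold change of -0.10 (95% interval -0.29 to 0.10) was not called (edgeR adjusted p = 0.408). Grb14 (minus strand of chr2:64912476-65024987) had 39.3, 40.8, 43.5 and 41.1 CPM with vehicle and 29.3, 25.3, 28.6 and 26.9 CPM with PTH. Its groups did not overlap, and it fell 1.50-fold (log2 fold change -0.58, edgeR adjusted p = 3.43e-05). The log2 ratio of Grb10 to Grb14 counts rose by 0.48, from 4.36 ± 0.0554 to 4.84 ± 0.137 (exact permutation p = 0.0286, n = 4). Grb7, the remaining gene of this family, reached at most 20 counts, and the adaptor Grb2, which links receptors to Ras, was not called (log2 fold change -0.07, edgeR adjusted p = 0.477).

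Pik3r1 and Pik3r3 encode regulatory subunits of PI3-kinase, which hold the catalytic subunit stable and inactive until they bind phosphorylated IRS proteins. Pik3r1 (minus strand of chr13:101680563-101768217) had 164, 150, 148 and 144 CPM with vehicle and 75.1, 69.6, 73.5 and 73.3 CPM with PTH. It fell in every PTH sample to about the same level, 2.07-fold below vehicle (log2 fold change -1.05, 95% interval -1.19 to -0.92, edgeR adjusted p = 5.96e-08). Pik3r3 (plus strand of chr4:116221618-116303056) had 97.0, 100, 94.2 and 89.0 CPM with vehicle and 69.4, 70.0, 71.2 and 73.3 CPM with PTH. Its fall was smaller, with a log2 fold change of -0.42 (edgeR adjusted p = 0.000114) and again no overlap. The share of Pik3r3 in the pair per kb went from 46.0 ± 1.29% to 56.9 ± 0.965%, and its log2 count ratio to Pik3r1 rose by 0.63 (exact permutation p = 0.0286, n = 4). Unlike the sum of the IRS pair on the same scale, the sum of both fell, from 39.4 ± 1.88 to 23.7 ± 0.479 CPM per kb. Pik3r2, the other regulatory subunit of this class, fell too, from 128 ± 6.34 to 86.1 ± 6.04 CPM with PTH (log2 fold change -0.57, edgeR adjusted p = 3.03e-05), so all 3 genes for regulatory subunits of the IRS-bound enzyme were lower.

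The catalytic subunits did not follow one direction. Pik3ca fell by 0.32 on the log2 scale (edgeR adjusted p = 0.00261), Pik3cb was not called (log2 fold change 0.24, adjusted p = 0.245) and Pik3cd, which is abundant in leukocytes, rose (8.37 ± 1.53 CPM with vehicle, 49.5 ± 6.06 CPM with PTH, log2 fold change 2.56, adjusted p = 1.65e-08). Summed macrophage markers, with 8 of 8 genes tested and 2 called higher, lay between 235 and 412 CPM with vehicle and between 355 and 412 CPM with PTH. Their part in the rise of Pik3cd was not tested. Pik3ip1, an inhibitor of PI3-kinase at the plasma membrane, fell from 52.7 ± 1.52 to 16.9 ± 0.334 CPM with PTH (log2 fold change -1.64, edgeR adjusted p = 9.82e-10).

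Akt1 (minus strand of chr12:112653821-112674884), the kinase on which these signals converge, had 290, 292, 297 and 299 CPM with vehicle and 305, 260, 282 and 286 CPM with PTH. The groups overlapped, and the log2 fold change of -0.06 (95% interval -0.20 to 0.09) was not called (edgeR adjusted p = 0.514). With upper-quartile scaling, which moves the median of all genes by -0.11 on the log2 scale, Akt1 passed the test at -0.17 in the edgeR quasi-likelihood test (adjusted p = 0.043). Its relative Akt2 rose by 0.21 on the log2 scale (edgeR adjusted p = 0.0298), with overlapping groups. This call was lost in 8 of 16 alternative settings, namely with upper-quartile scaling, without the filter, and without PTH replicate 1, 3 or 4 or vehicle replicate 2, 3 or 4, with edgeR adjusted p-values between 0.0618 and 0.269. The Akt1 entry of the count table stands in a locus that also holds the microRNA gene Mir6939, to which at most 7 counts were assigned in a sample.

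Foxo1 and Foxo3 encode the FoxO transcription factors that Akt holds outside the nucleus. Foxo1 (plus strand of chr3:52268336-52353221) had 34.6, 35.5, 40.7 and 43.9 CPM with vehicle and 84.9, 63.3, 69.4 and 87.5 CPM with PTH. The groups were apart in spite of a wide spread with PTH, and the log2 fold change was 0.98 (95% interval 0.73 to 1.23, edgeR adjusted p = 2.31e-05). Foxo3 (minus strand of chr10:42181841-42276755) had 86.5, 97.2, 97.3 and 98.6 CPM with vehicle and 85.5, 71.9, 82.6 and 85.2 CPM with PTH. Its groups were separated by about 1 CPM, since vehicle replicate 1 lay close to the PTH samples. The log2 fold change of -0.22 (95% interval -0.38 to -0.06, edgeR adjusted p = 0.0258) was the smallest among the 7 called genes, and it missed the threshold in 7 of 16 alternative settings. These were the replicate block, the offset for transcript length, and the fits without PTH replicate 2 or 3 or without vehicle replicate 2, 3 or 4, with edgeR adjusted p-values between 0.0528 and 0.0838.

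Together these moves brought the FoxO pair closer to equal amounts. The log2 ratio of Foxo1 to Foxo3 counts rose by 1.20, from -1.30 ± 0.120 to -0.10 ± 0.138 (exact permutation p = 0.0286, n = 4). As with the IRS pair, this p-value followed from the opposite separation of the single genes. The share of Foxo1 per kb went from 24.3 ± 1.52% to 42.4 ± 2.33%. The sum of the pair was 18.3 ± 1.23 CPM per kb with vehicle and 20.7 ± 2.21 with PTH, with overlapping ranges. Foxo4 (log2 fold change -0.01, edgeR adjusted p = 0.934) and Foxo6, with at most 60 counts in a sample (-0.16, adjusted p = 0.692), were not called.

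**Figure D3:**
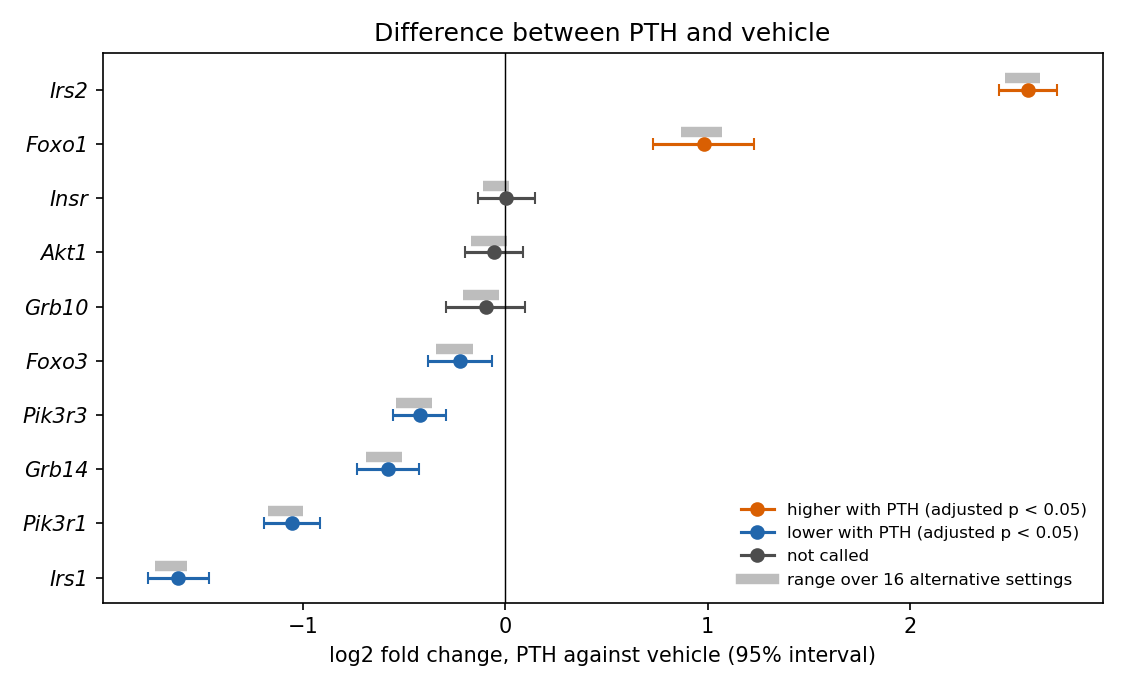
Log2 fold change of PTH against vehicle for the 10 genes, as points with 95% intervals from the edgeR fit, coloured by call, with grey bars for the range over 16 alternative settings. Irs2 (2.58) and Irs1 (-1.61) stand at the ends, and the intervals of Insr, Akt1 and Grb10 cross 0.

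All 4 samples of one treatment lay on one side of the other in 7 of the 10 genes, those called, against 43.0% of all tested genes. With such separation an exact permutation test on single genes must give p = 0.0286, n = 4 per group, the smallest value possible. That p-value restates the separation and is no second test of it.

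Per length of transcript the order of the genes changed as well. With vehicle the order was Grb10 (167 CPM per kb), Akt1 (109), Pik3r1 (21.3), Pik3r3 (18.1), Irs1 (15.8), Grb14 (14.7), Foxo3 (13.9), Foxo1 (4.46), Insr (3.64) and Irs2 (2.41). Of the neighbours in this order, Irs1 overlapped Grb14 and Grb14 overlapped Foxo3. With PTH it was Grb10 (156), Akt1 (105), Irs2 (14.4), Pik3r3 (13.5), Foxo3 (11.9), Pik3r1 (10.2), Grb14 (9.84), Foxo1 (8.80), Irs1 (5.14) and Insr (3.65). Here Irs2 overlapped Pik3r3, Foxo3 overlapped Pik3r1, Pik3r1 overlapped Grb14 and Grb14 overlapped Foxo1. The range of the 8 less abundant genes thus narrowed, with Irs1 joining Insr at the lower end. The longest annotated transcript of Grb14 does not code for protein. With its longest coding transcript, a length chosen after the values were seen, the level of Grb14 was 20.7 CPM per kb with vehicle and 13.9 with PTH.

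The surrounding pathway was described by 8 further lists of 100 genes, none of them members, of which 95 were tested, 31 were higher and 29 lower. That is 63.2% called, against 45.8% of all genes, and the median log2 fold change was 0.05. The list with the clearest direction held the brakes on the receptor and its substrates. Of 15 genes, all tested, 11 were higher, 0 were lower and 4 were not called, and the median was 0.87. Among all tested genes 23.3% were called higher. Grb10 and Grb14, which also restrain the receptor, belong to the 10 genes and are not in this list. Neither was higher (log2 fold changes -0.10 and -0.58). Socs3, whose product blocks the receptor and marks IRS proteins for degradation, rose from 14.4 ± 1.37 to 446 ± 24.0 CPM with PTH (log2 fold change 4.95, edgeR adjusted p = 5.44e-12). Socs1 rose by 2.45, Cish by 1.41, and Socs2 by 1.15 on the log2 scale. Ptpn1, which encodes the phosphatase that strips phosphate from the receptor, rose by 1.21, and the pseudokinase genes Trib1, Trib2 and Trib3, products of which bind Akt, rose by 1.57, 1.26 and 0.87. Ptprf, Socs6, Enpp1 and Cbl were not called.

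The remaining lists were mixed. Of 15 tested receptors and adaptors, 3 were higher and 5 lower (median -0.07), with the largest fall, leaving out genes under a mean of 1 CPM, in Gab1, an adaptor that recruits PI3-kinase, from 54.6 ± 5.36 to 30.8 ± 2.38 CPM (log2 fold change -0.82). PI3-kinase subunits and regulators other than the members had 2 of 9 higher and 3 lower (median 0.11). None of 8 phosphatases of phosphoinositides and Akt was higher and 3 were lower (median -0.10), among them Phlpp1, which removes phosphate from Akt (log2 fold change -0.99, edgeR adjusted p = 1.1e-06). Without vehicle replicate 4, 1 of these phosphatases was called higher.

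Among 10 Akt kinases and activators, 3 were higher and 3 lower (median -0.02). Prr5, a subunit of the mTORC2 complex that phosphorylates Akt, rose from 13.4 ± 0.476 to 121 ± 6.69 CPM with PTH (log2 fold change 3.18, edgeR adjusted p = 1.07e-11), while Deptor, an mTOR inhibitor, fell by 0.49. In the mTORC1 branch 2 of 10 were higher and 5 lower (median -0.18), led by Rps6kb2 (0.66) and Tbc1d7 (-0.49). The number of lower genes there was 3 without vehicle replicate 1, without vehicle replicate 2 and with the replicate block. Of 8 other Akt substrates 2 were higher and 2 lower (median 0.08), and 1 was higher without PTH replicate 4, without vehicle replicate 2, 3 or 4 and in 4 other settings. Here the related GLUT4 regulators Tbc1d1 and Tbc1d4 moved apart, with log2 fold changes of 0.85 and -0.67.

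**Figure D4:**
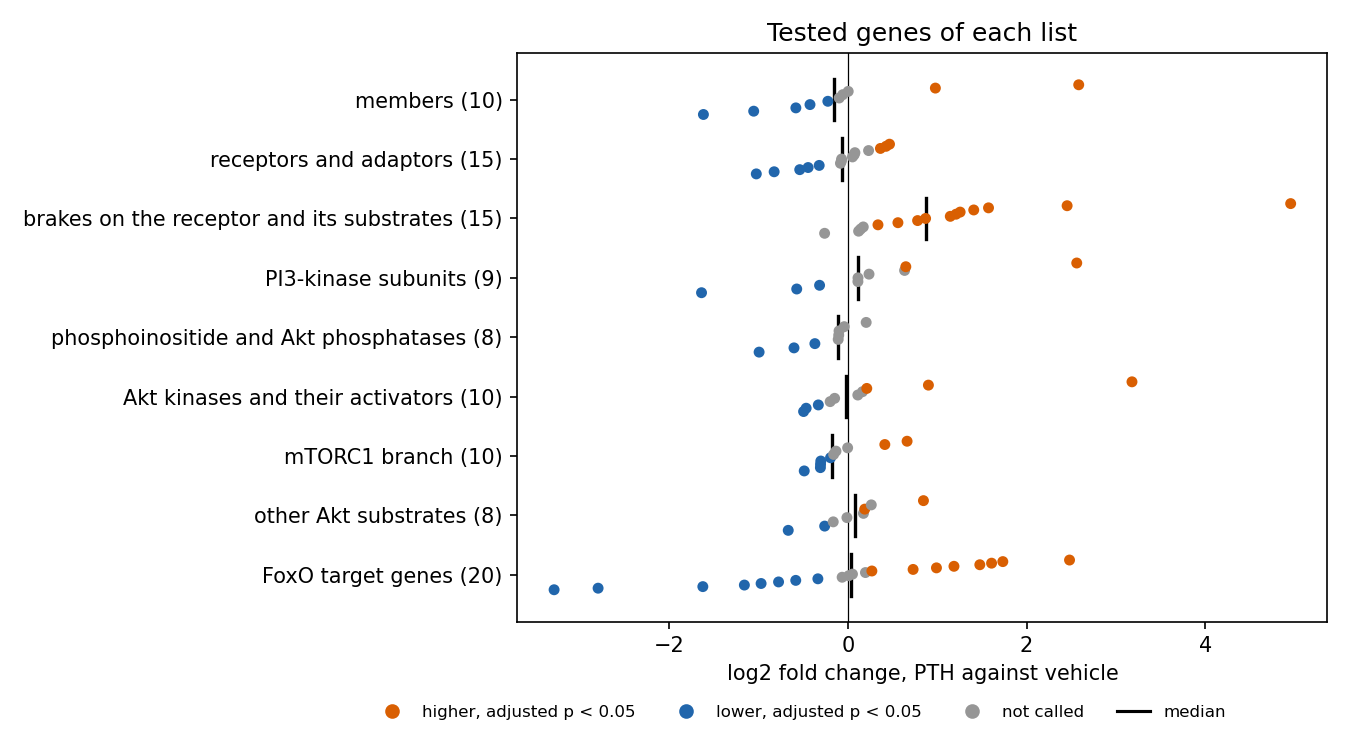
Log2 fold change of PTH against vehicle for each tested gene of the 10 genes (members) and of 8 pathway lists, with 1 point per gene coloured by call, the number tested in brackets and a black line at the median of each list. The brakes stand to the right of 0 except Enpp1 (-0.26, not called), with a median of 0.87 and no gene called lower. The phosphatases have no gene called higher, and each other list holds calls on both sides.

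Genes described as targets of FoxO factors, which rise when FoxO proteins are in the nucleus, showed no shared direction beside the rise of Foxo1. Of 22 listed genes 20 were tested, 8 were higher, 8 were lower and 4 were not called, and the median log2 fold change was 0.03. Leaving out genes whose mean over all samples was under 1 CPM, the largest rise was that of Gadd45a, a stress and DNA repair gene (log2 fold change 1.73, edgeR adjusted p = 1.74e-08). Fbxo32 (1.61) and the cell cycle inhibitor gene Cdkn1b (1.48) came next. The largest fall was that of Klf15, a metabolic transcription factor, from 3.75 ± 0.705 to 0.523 ± 0.318 CPM with PTH (log2 fold change -2.79, edgeR adjusted p = 3.98e-05), with between 10 and 51 counts per PTH sample. Klf15 was followed by Cited2 (-1.62) and Sesn1 (-1.16).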

How the data were processed

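RNA of 8 samples (4 PTH, 4 vehicle) was sequenced from poly(A)-enriched libraries. The authors aligned the reads to GRCm38 (mm10) with HISAT2, assembled transcripts with StringTie and deposited whole-number counts per gene and sample, not normalized, that StringTie's companion script derives from transcript coverage. The annotation version, the read length setting of that script and the strand setting are not given in the sources used here. All 10 genes are listed under assembled loci, and 7 overlap another annotated gene, whose own entries held at most 18 counts per sample where listed. Without a stated strand setting, reads of an antisense gene could not be told apart from those of Irs1, Irs2, Insr or Foxo1.

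Of 47706 entries, 46575 were matched to GENCODE M21 for positions and transcript lengths. Entries that passed filterByExpr (minimum count 10, minimum total 15) were fitted together in edgeR 4.0.16 (R 4.3.3) after TMM normalization, with its quasi-likelihood test (two-sided), and all adjusted p-values are Benjamini-Hochberg values over the 16736 genes tested. Called means an adjusted p under 0.05, with no minimum fold. Ratios within a sample were log2 ratios of counts + 0.5, and single genes were tested on log2(CPM + 0.1), both by exact permutation in Python 3.11.15. The fit was tested on simulated counts with known changes. Related genes were sought with blastn 2.17.0 (at least 150 bases at 95% identity), which found only the overlapping genes. Promoter windows are RefSeq's (GRCm38.p6), and 9 of the 10 genes had one. The precision of low genes is limited by their counts.

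The 10 genes and the pathway and marker lists were chosen with earlier results of these data known. Named genes are the 10, their close relatives, the called gene with the largest rise and fall in each list (mean of at least 1 CPM), the 3 genes most like Irs2 and like Irs1 in pattern, Tnfsf11 and genes of the marker lists, apart from genes not reported here. Klf11, Pyroxd1, Pcbp1, Fbxo32, Cdkn1b, Cited2, Sesn1 and the further brakes were named after their values were seen. Alternatives were DESeq2 1.42.0, 2 other scalings, no filter, summed entries, halved counts, a replicate block, an offset for transcript length, another pseudocount for the ratios and leaving out each sample.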

Additional observations from a re-analysis of the deposited data

Results flagged for a closer look

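The vehicle values of Foxo3 stood out. Replicate 1 had 86.5 CPM while the other 3 samples had 97.2 to 98.6 CPM, and the gap took 0.884 of the range of the group (above Dixon's limit for 4 samples). Among 28 groups of 4 values checked no other passed the limit, and chance flags about 1 in 20. Without this sample the log2 fold change of Foxo3 was -0.27 (edgeR quasi-likelihood test, adjusted p = 0.0208). The cause of its lower value was not tested.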

How the results depend on the processing

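Irs1 (log2 fold change -1.73 to -1.57), Irs2 (2.47 to 2.64), Pik3r1 (-1.17 to -1.0), Foxo1 (0.87 to 1.07), Grb14 (-0.69 to -0.51) and Pik3r3 (-0.54 to -0.36) kept their direction and call under all 16 alternatives. The number of higher genes among the 10 was 2 throughout, and the number of lower genes was 4 to 6. Upper-quartile scaling raised it to 6 through Akt1 (-0.17), whose sign turned with the offset for transcript length (0.009). Grb10 stayed uncalled under all 16 (-0.21 to -0.03). Insr, near 0 throughout and never called, turned sign with upper-quartile scaling (-0.108), which moves the median of all genes by -0.114, and without the filter (-0.031). Leaving out 1 sample at a time moved Insr between -0.022 and 0.017. The uncalled relatives Foxo4 and Grb2 also turned sign, Foxo4 with the length offset (0.061) and, over fits without 1 sample, between -0.056 and 0.041, and Grb2 between -0.121 and 0.006 over those fits. Of the 95 tested genes in the pathway lists, 27 to 32 were higher and 26 to 36 lower. The call of Foxo3 was lost in 7 settings, that of Akt2 in 8 and that of Irs3 in 1, and the causes were not tested.

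The counts gave no sign that sample numbers pair the samples. Deviations from the group means correlated at -0.041 to 0.027 over all genes for samples that bear one number, and 0 of 4 PTH samples correlated best with its own number. With 4 samples per group such a check cannot exclude pairing. With the number as a replicate block, the ratio differences were unchanged (4.199 for Irs2 to Irs1, 1.198 for Foxo1 to Foxo3, 0.479 for Grb10 to Grb14 and 0.63 for Pik3r3 to Pik3r1) but their exact p became 0.125, the smallest that 4 pairs allow, and of the calls on the 10 genes that of Foxo3 was lost (adjusted p = 0.0528 by the edgeR quasi-likelihood test).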
